A study of Homo sapiens with 6 samples.

Results

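The genes described here are 38 estrogen-responsive genes of luminal breast cancer cells, taken from the deposited expression table by gene symbol from a fixed list. All 38 were among its 17891 genes, all had counts in each of the 6 libraries, and all 38 passed the filter on low counts that left 14076 genes for testing. RNA sequencing had been done on T47D, an established line of human breast cancer cells of the luminal kind, which carry the estrogen receptor. The cells of the PRL group (3 libraries) carried a lentivirus of the PLVX-puro type with PRL, the gene of the hormone prolactin, and those of the control group (3 libraries) the lentivirus without it. All cells of both groups were thus transduced, had been grown in medium with fetal bovine serum, and belong to 1 cell line, and it is not stated whether a group is 1 pool, 1 clone or several. The samples include no arm with added estrogen or with an antiestrogen. The submitters call the 3 libraries per group biological replicates.

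Estrogen receptor alpha is a nuclear receptor that binds DNA at palindromic response elements when it holds estradiol, and recruits coactivators to the genes it raises. Most of its binding lies in distant enhancers that the pioneer factors FOXA1 and GATA3 keep open, and a smaller part lies near gene starts. In luminal breast cancer cells its targets include coregulators of the receptor itself, growth factor receptors, channels and transporters, and their levels are used as a readout of hormone dependence. Prolactin acts through another kind of receptor, a cytokine receptor coupled to JAK2 and STAT5.

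Promoter windows are shown because they belong to the members at opposite ends of the list, SUSD3 among the rises and KCNK5 among the falls (EGR3, the largest rise, is named only). Each is the 250 bases before the RefSeq gene start in the GRCh38.p14 promoter table, read 5′ to 3′ on the gene's strand, and capitals mark GGTCA or TGACC (1 arm of the palindromic estrogen response element, on either strand) and GGGCGG or CCGCCC (the GC box on either strand).
SUSD3, chr9:93058451-93058700, plus strand: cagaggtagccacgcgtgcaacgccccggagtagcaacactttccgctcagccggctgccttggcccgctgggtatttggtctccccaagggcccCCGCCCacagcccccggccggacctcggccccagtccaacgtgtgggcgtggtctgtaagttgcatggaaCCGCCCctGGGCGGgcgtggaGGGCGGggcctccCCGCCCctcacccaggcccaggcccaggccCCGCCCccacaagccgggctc
KCNK5, chr6:39229476-39229725, minus strand: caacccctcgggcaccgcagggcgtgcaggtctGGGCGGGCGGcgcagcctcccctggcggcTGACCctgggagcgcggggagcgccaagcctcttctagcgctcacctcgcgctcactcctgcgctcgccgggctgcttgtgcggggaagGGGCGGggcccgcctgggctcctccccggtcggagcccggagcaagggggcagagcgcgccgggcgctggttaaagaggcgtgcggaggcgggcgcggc
The SUSD3 window held 6 GC boxes and no such arm, and the KCNK5 window held 1 arm, TGACC, 188 to 184 bases before the start, beside 3 GC boxes, of which the first 2 overlap. GC content was 73.2% and 77.2%.

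Of the 38 members, 27 matched the promoter table by NCBI gene ID, with 52 windows of 250 bases. ADCY9, BCAS1, EGR3, FKBP4, GREB1, MAPT, MYBL1, P2RY2, RERG, SCNN1A and SGK3 had no entry. The full element, GGTCA and TGACC set 3 bases apart, which reads the same on both strands, was in 0 of the 52 windows and in 0.0399% of all 35116 windows. Allowing 1 mismatch in its 10 fixed bases gave 0 of 52 again, against 0.678% of all windows. The single arm was in 13 of 52 windows, of 12 genes (ABAT, CA12, FHL2, KCNK5, NBL1, NRIP1, PDZK1, RAB31, RAPGEFL1, TIPARP, TMPRSS3 and TPBG), and in 32.6% of all windows. GC boxes were in 31 of 52 windows, against 42.6% of all. The palindrome TTCNNNGAA, the core of STAT sites, was in 3 of 52 windows, of FHL2 and TPBG, against 6.57% of all. These matches describe letters in the windows and say nothing of binding.

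Libraries held 16211146 to 17402348 estimated gene counts. Levels are CPM, counts scaled to library size by TMM (the trimmed mean of M values), unless TPM, which is also per transcript length, is named. Errors are SD with n = 3 libraries a group. Log2 changes are PRL over control from edgeR's quasi-likelihood fit with their standard error, SE. A change passed the test at an adjusted p under 0.05. PRL itself had 3, 3 and 1 counts in the controls and 8277, 8097 and 7789 in the PRL libraries, in the direction of the labels. Luminal markers were high in both groups, with 8 markers summing to 17630 to 19290 TPM in controls and 17259 to 17476 TPM in the PRL group, sums made mostly of keratins. Of the 8, KRT18 (-0.73), KRT8 (-0.60), KRT19 (-0.47) and ESR1 (-0.35, with the other sign on TPM) were lower on the log2 scale, CDH1 (0.68), FOXA1 (0.49) and GATA3 (0.23) were higher, with edgeR adjusted p from 7.4e-05 to 0.0311, and EPCAM did not pass (0.09, edgeR adjusted p = 0.305). On TPM the keratin falls were smaller. KRT19 averaged 5540 TPM in controls and 5531 TPM with PRL, KRT8 7423 and 6778 TPM, and KRT18 4735 and 3928 TPM. Most markers of other cells were low, apart from COL1A1 and, in the PRL group, CD68. The basal, fibroblast and leukocyte sums were higher in the PRL group. In controls and with PRL the summed TPM was 2.23 to 3.97 and 5.58 to 6.23 for 5 basal markers, 11.4 to 16.1 and 23.7 to 24.6 for 5 fibroblast markers (nearly all COL1A1), and 6.32 to 7.75 and 20.4 to 21.6 for 4 leukocyte markers (mostly CD68 in the PRL group). Of these markers 2 of 3 tested basal, the 1 tested fibroblast and 2 of 4 leukocyte genes were higher, where 32.4% of all tested genes were. Lower was 1 leukocyte gene, where 30.5% of all tested genes were. The sum of 3 endothelial markers was 0.19 to 0.34 and 0.26 to 0.30, with CDH5 at 0 counts in the controls. Those that passed as higher were TP63 (1.61 ± 0.594 to 3.84 ± 0.571 CPM), KRT17 (1.02 ± 0.373 to 1.84 ± 0.277 CPM), COL1A1 (50.2 ± 8.25 to 71.3 ± 0.129 CPM), CD68 (3.54 ± 0.475 to 15.1 ± 0.441 CPM) and CD3E (0.541 ± 0.204 to 1.06 ± 0.0205 CPM); their adjusted p in edgeR lay between 6.1e-07 and 0.0306. LYZ was lower (2.94 ± 0.549 to 1.53 ± 0.497 CPM, edgeR adjusted p = 0.0119). KRT5, KRT14, COL1A2, COL3A1, DCN, LUM, CDH5 and VWF were too low to be tested, and VIM, PTPRC and PECAM1 did not pass. The part of these genes in the results below was not tested. In bulk RNA, fewer cells of a type and less RNA per cell cannot be told apart.

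The comparison asked how the estrogen-responsive genes differ in T47D cells that overexpress prolactin. They went in both directions. Of the 38 members, 19 were higher in the PRL group (50%, where 32.4% of all tested genes were higher), 12 were lower (31.6%, against 30.5%) and 7 did not pass. In either direction 81.6% of members passed, against 62.9% of all tested genes, and 31.6% by at least 2-fold, against 15.8%. At least 2-fold changes were found for 7 rises (18.4%, against 10.6%) and 5 falls (13.2%, against 5.29%). The share of members that fell lies near that of all genes. The median log2 fold change was 0.27 over the members and 0.01 over all tested genes. For 33 members (86.8%, against 69.5% of all tested genes) every PRL library lay on the same side of every control library, 21 above and 12 below. No test over the list as a whole is given, since the list was drawn up with results of these data known.

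**Figure D1:**
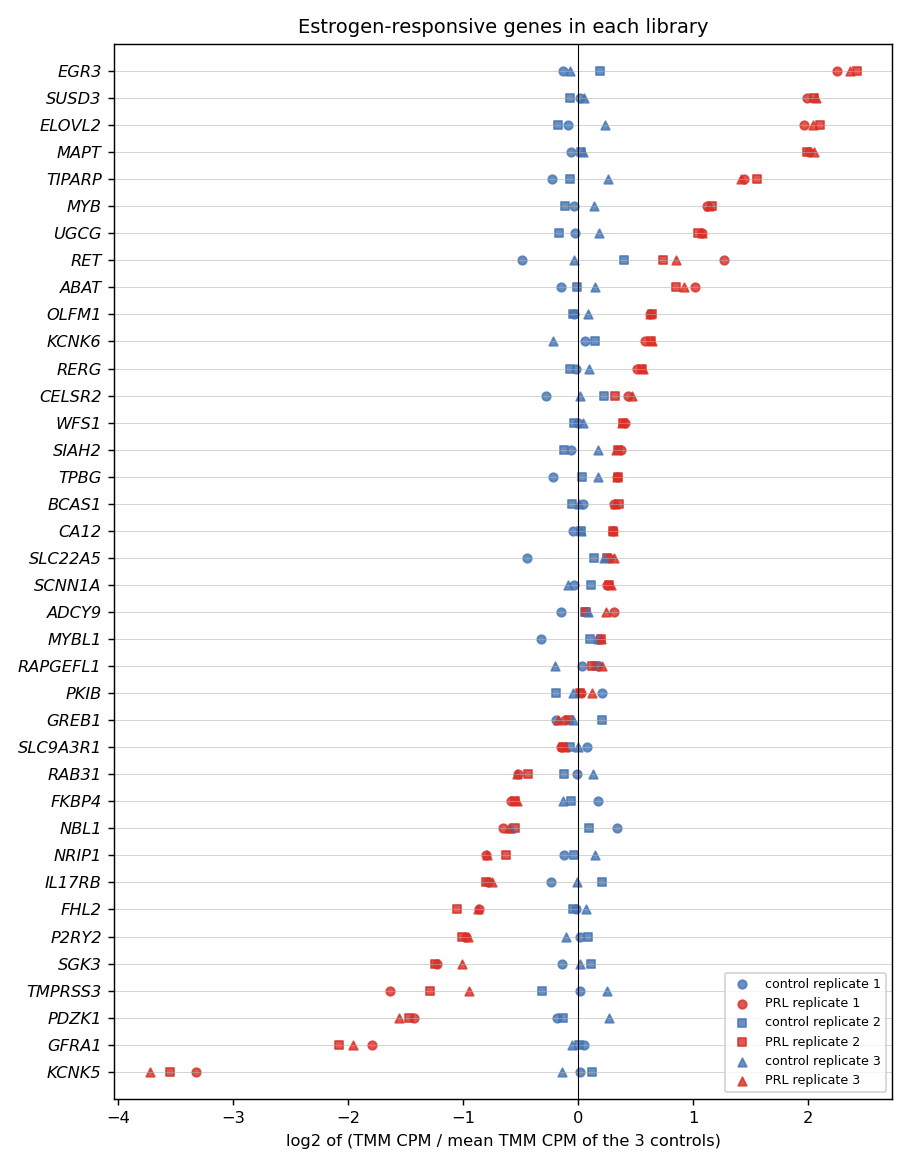
Level of each of the 38 members in each of the 6 libraries, as log2 of its TMM-scaled CPM over the mean of the 3 controls (x axis), with members ordered by fitted fold change (y axis). Blue marks are controls, red marks PRL libraries, and the marker shape gives the replicate number; the PRL marks lie in tight clusters while the controls are more scattered, and the marks of 33 members are separated by group.

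The control libraries varied more than the PRL libraries in 33 of 38 members (86.8%) and in 84% of the 14059 tested genes with a mean above 0 in both groups. The median coefficient of variation over the members was 10.8% among controls against 3.02% among PRL libraries, and over all tested genes 12.1% against 4.59%. Control replicate 3 was the control nearest to the PRL mean in 22 of 38 members (57.9%), and in 49.8% of all tested genes. Without it, 22 members were higher and 12 lower, beside 36.7% and 32.7% of the 14339 genes then tested. The scale also matters. On library totals 24 members were higher and 10 lower, beside 45.7% higher and 17% lower of all tested genes, whose median log2 change moved to 0.26. On log2 TPM 25 were higher and 6 lower, beside 56.9% and 11.1% of the 12494 genes tested there, with a median of 0.39. Changes below are relative to the TMM scale, and 24 members (18 higher, 6 lower) kept their direction and call in every alternative that gave them a value.

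**Figure D2:**
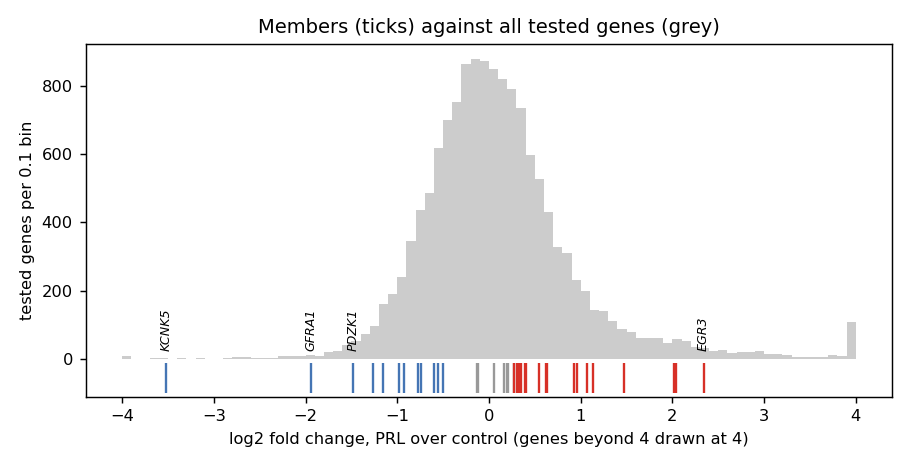
Distribution of the log2 fold change (x axis) over 14076 tested genes (grey, genes per bin of 0.1 on the y axis), with the 38 members as ticks under it (red higher, blue lower, grey not passed). Members lie on both sides of 0, from -3.52 for KCNK5 to 2.34 for EGR3.

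Levels per transcript length spanned a wide range. In controls 4 members averaged at least 100 TPM, 19 lay between 10 and 100 TPM, 13 between 1 and 10 TPM and 2 under 1 TPM. SLC9A3R1, at 908 ± 66.1 TPM, and FKBP4, at 524 ± 13.1 TPM, led the order, above 98.9% and 98.1% of tested genes. OLFM1 (131 ± 12.9 TPM) and CA12 (119.9 ± 15.4 TPM) came next and differed by less than the sum of their SDs. EGR3 (0.347 ± 0.0751 TPM) and RET (0.703 ± 0.262 TPM) were lowest, above 6.2% and 11.8% of tested genes.

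Nuclear regulators: among 9 genes that act on transcription or on the receptor complex, 4 rose, 3 fell and 2 did not pass. The shares were 44.4% higher and 33.3% lower, beside 32.4% and 30.5% of all tested genes. EGR3, an immediate early zinc finger factor (NCBI gene 1960, GRCh38 chromosome 8, 22687659 to 22693302, minus strand), had 15, 20 and 17 counts in controls and 96, 109 and 101 with PRL. Its level was 1.02, 1.28 and 1.06 CPM across the controls and 5.32, 6.002 and 5.76 CPM across the PRL libraries, so that the lowest PRL library was well above the highest control (log2 change 2.34 with an SE of 0.19, adjusted p = 4.1e-06 in edgeR). It was the largest rise among the members and started from the lowest TPM. TIPARP, a mono-ADP-ribosyltransferase induced by both the estrogen and the aryl hydrocarbon receptor, lay at 12.5, 13.9 and 17.5 CPM across the controls and 39.8, 43.1 and 39.2 CPM across the PRL libraries (log2 change 1.47 with an SE of 0.12, adjusted p = 3.8e-06 in edgeR). Control replicate 3 was the highest control and still far under the PRL libraries. MYB, the transcription factor whose transcript elongation the estrogen receptor releases in luminal cells, had 14.9, 14.1 and 16.8 CPM across the controls and 33.2, 34.1 and 33.6 CPM across the PRL libraries (log2 change 1.14 with an SE of 0.09, adjusted p = 3.9e-06 in edgeR). The groups did not overlap, and the PRL libraries differed by less than 1 CPM from each other. SIAH2, a ubiquitin ligase, rose from 132 ± 14.7 to 168 ± 2.74 CPM (log2 change 0.35 with an SE of 0.09, adjusted p = 0.00532 in edgeR).

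The other 3 regulators that passed fell. FHL2, a LIM domain coregulator, had 20.7, 20.3 and 21.9 CPM across the controls and 11.5, 10.1 and 11.5 CPM across the PRL libraries (log2 change -0.93 with an SE of 0.10, adjusted p = 2.5e-05 in edgeR). All PRL libraries lay well under all controls. NRIP1, a corepressor that binds ligand-loaded nuclear receptors, fell from 30.2 ± 2.97 to 18.1 ± 1.23 CPM (log2 change -0.74 with an SE of 0.10, adjusted p = 1.1e-04 in edgeR). FKBP4, an HSP90-bound immunophilin of steroid receptor complexes, fell from 1316 ± 150.1 to 895 ± 15.2 CPM (log2 change -0.56 with an SE of 0.10, adjusted p = 7.4e-04 in edgeR). NRIP1 and FKBP4 no longer passed on log2 TPM (-0.24 and -0.13, limma adjusted p = 0.154 and 0.0608). GREB1, a chromatin-bound cofactor of the receptor and one of its best known targets, did not pass: it had 239, 316 and 264 CPM across the controls and 252, 258 and 242 CPM across the PRL libraries, with the groups overlapping (log2 change -0.12 with an SE of 0.10, adjusted p = 0.305 in edgeR). Without control replicate 1 it passed as lower (-0.20, edgeR adjusted p = 0.0481), and it had the other sign on library totals (0.12), FPKM (0.0481) and TPM (0.24). MYBL1, a MYB relative, had 62.7 ± 11.1 CPM in controls against 71.7 ± 0.548 CPM with PRL (log2 change 0.19 with an SE of 0.12, adjusted p = 0.167 in edgeR), and passed as higher without control replicate 3 (0.30, edgeR adjusted p = 0.0267), on library totals (0.44, edgeR adjusted p = 0.0229), FPKM (0.41, limma adjusted p = 0.0276) and TPM (0.61, limma adjusted p = 0.00836). The MYBL1 groups did not overlap. The difference between the changes of MYB and MYBL1 was not tested.

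Receptors and the cell surface: of 10 genes 5 rose (50%, against 32.4% of all tested genes) and 5 fell (50%, against 30.5%). SUSD3, a sushi domain membrane protein (NCBI gene 203328, GRCh38 chromosome 9, 93058688 to 93085138, plus strand), had 21.1, 19.9 and 21.7 CPM across the controls and 82.8, 86.6 and 87.7 CPM across the PRL libraries (log2 change 2.04 with an SE of 0.08, adjusted p = 1.5e-08 in edgeR). The groups were far apart and each was tight. It is one of the 2 members whose promoter window is printed above. RET, the receptor tyrosine kinase for the GDNF family of ligands, was low, with 23, 45 and 34 counts in controls and 95, 66 and 69 with PRL. Its level was 1.56, 2.87 and 2.12 CPM across the controls and 5.26, 3.63 and 3.94 CPM across the PRL libraries (log2 change 0.96 with an SE of 0.25, adjusted p = 0.00581 in edgeR), so that the highest control and the lowest PRL library lay close together. GFRA1, the co-receptor that binds GDNF and presents it to RET (NCBI gene 2674, GRCh38 chromosome 10, 116056925 to 116273467, minus strand), went the other way, with 29.7, 28.7 and 27.6 CPM across the controls and 8.25, 6.77 and 7.36 CPM across the PRL libraries (log2 change -1.94 with an SE of 0.10, adjusted p = 2.2e-07 in edgeR). It was 3.84-fold lower in the PRL group, with no overlap. The pair that forms 1 receptor complex thus moved in opposite directions.

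Among the other surface genes, TMPRSS3, a membrane serine protease, had 46, 39 and 59 control counts and 18, 23 and 28 with PRL. Its level was 3.12, 2.49 and 3.68 CPM across the controls and 0.997, 1.27 and 1.598 CPM across the PRL libraries (log2 change -1.26 with an SE of 0.25, adjusted p = 0.00142 in edgeR). P2RY2, a G protein-coupled receptor for ATP and UTP, lay at 94.1, 98.9 and 86.4 CPM across the controls and 47.3, 46.1 and 47.9 CPM across the PRL libraries (log2 change -0.98 with an SE of 0.08, adjusted p = 3.2e-06 in edgeR). Each group was tight and the PRL level was about 1.98-fold lower. IL17RB, a receptor for interleukins 17B and 25, had 19.6, 26.7 and 22.9 CPM across the controls and 13.4, 13.2 and 13.7 CPM across the PRL libraries (log2 change -0.78 with an SE of 0.12, adjusted p = 2.4e-04 in edgeR). Its controls were scattered and all above the PRL libraries. P2RY2 and IL17RB did not pass on log2 TPM (-0.21 and -0.19, limma adjusted p = 0.144 and 0.32).

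NBL1, a secreted antagonist of bone morphogenetic proteins, had 97.5, 82.3 and 51.3 CPM across the controls and 48.8, 52.8 and 50.9 CPM across the PRL libraries (log2 change -0.60 with an SE of 0.18, adjusted p = 0.0146 in edgeR). Control replicate 3 lay within the PRL range, and the call ended without control replicate 1 (-0.39, edgeR adjusted p = 0.0646) or control replicate 2 (-0.55, edgeR adjusted p = 0.0696), while the change was -0.80 without control replicate 3. It also ended on library totals (-0.33, edgeR adjusted p = 0.104), FPKM (-0.30, limma adjusted p = 0.142) and TPM (-0.11, limma adjusted p = 0.546). The readthrough gene MICOS10-NBL1, which shares exons with NBL1, fell from 127 ± 3.74 to 61.3 ± 2.09 CPM (edgeR adjusted p = 1.2e-06), and the sum of both was 204 ± 23.4 and 112 ± 2.25 CPM, so the division of reads between them is uncertain. Smaller rises were those of OLFM1, a secreted olfactomedin glycoprotein (208 ± 10.4 to 322 ± 1.43 CPM), CELSR2, an adhesion receptor of planar cell polarity (55.7 ± 9.64 to 73.8 ± 3.84 CPM), and TPBG, the oncofetal antigen 5T4 (55.8 ± 7.52 to 70.7 ± 0.279 CPM). Their log2 fold changes were 0.63, 0.41 and 0.34, with edgeR adjusted p of 4.5e-05, 0.0102 and 0.0102.

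**Figure D3:**
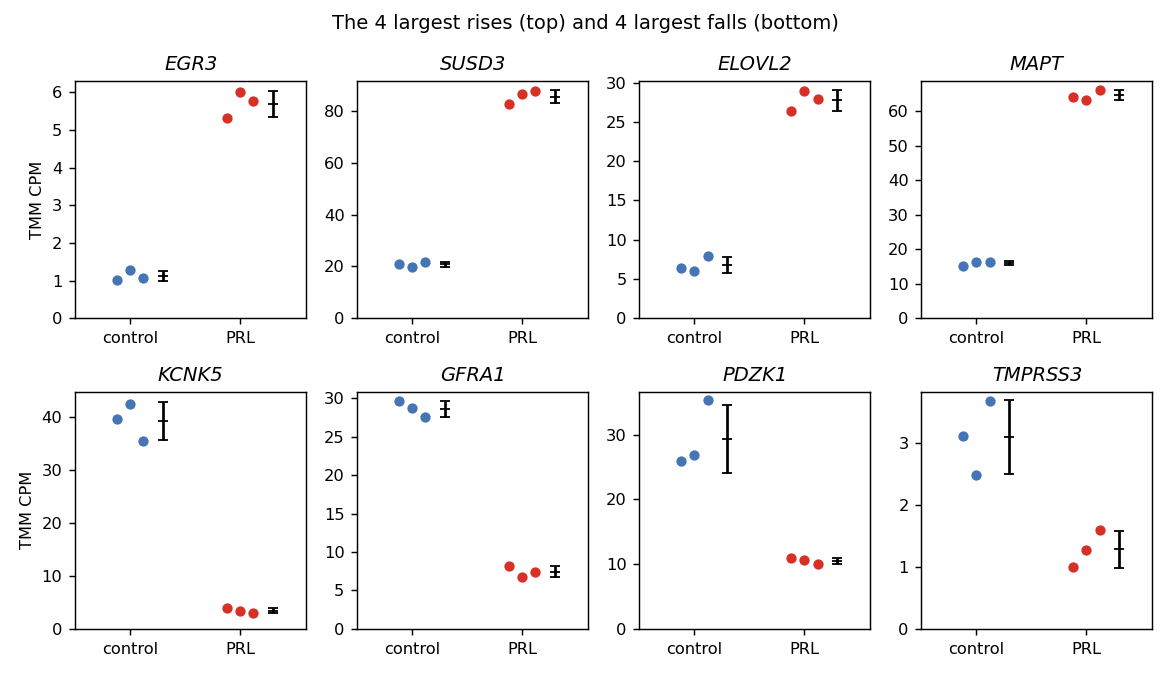
TMM-scaled CPM (y axis, from 0) in each library of the 4 largest rises and the 4 largest falls among the members; points are libraries, and the black bars beside them give the mean ± SD of 3. In all 8 panels, which were chosen by the size of the change, the groups do not overlap, as in 69.5% of all tested genes. KCNK5 lies between 35.6 and 42.6 CPM in controls and between 2.97 and 3.93 CPM with PRL.

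Channels, transporters and scaffolds: of 8 genes 4 rose (50%, against 32.4% of all tested genes), 2 fell (25%, against 30.5%) and 2 did not pass. KCNK5, a background potassium channel of the KCNK family that estrogen induces in breast cancer cells (NCBI gene 8645, GRCh38 chromosome 6, 39188973 to 39229450, minus strand), had 39.8, 42.6 and 35.6 CPM across the controls and 3.93, 3.36 and 2.97 CPM across the PRL libraries (log2 change -3.52 with an SE of 0.13, adjusted p = 1.1e-08 in edgeR). It was 11.5-fold lower in the PRL group, the largest change of all 38 members in either direction, and 0.0924% of tested genes had a lower log2 fold change. Its promoter window, printed above, is one of the 13 with a single arm. KCNK6, another channel of the family, rose from 98.7 ± 12.7 to 152 ± 3.204 CPM (log2 change 0.62 with an SE of 0.10, adjusted p = 2.6e-04 in edgeR). PDZK1, a PDZ domain scaffold that ties transporters to the membrane and a classical estrogen-induced gene, had 25.9, 26.9 and 35.4 CPM across the controls and 10.9, 10.6 and 9.99 CPM across the PRL libraries (log2 change -1.49 with an SE of 0.13, adjusted p = 6.9e-06 in edgeR). It was 2.801-fold lower, with control replicate 3 the farthest from the PRL group. PDZK1 has near-identical pseudogene copies, and how reads shared with them were counted is not known. SLC9A3R1, another PDZ scaffold and the most abundant member, had 1405, 1274 and 1333 CPM across the controls and 1207, 1218 and 1231 CPM across the PRL libraries (log2 change -0.13 with an SE of 0.09, adjusted p = 0.2 in edgeR). The groups did not overlap but the difference did not pass, and on log2 TPM it passed in the other direction (0.32, limma adjusted p = 0.00108).

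The rises among transport genes were small. CA12, a membrane carbonic anhydrase, went from 363 ± 9.02 to 447 ± 0.55 CPM and WFS1, a protein of the endoplasmic reticulum membrane, from 49.2 ± 1.29 to 64.7 ± 0.573 CPM, with log2 fold changes of 0.30 and 0.39 (edgeR adjusted p = 0.00438 and 6.1e-04). SCNN1A, a subunit of the epithelial sodium channel, rose from 49.1 ± 3.58 to 59.1 ± 0.804 CPM (0.27, edgeR adjusted p = 0.0115), a call that ended without PRL replicate 3 (0.26, edgeR adjusted p = 0.052). The gene LTBR overlaps 7.18% of its exon bases on the opposite strand, and LTBR did not pass (0.01, edgeR adjusted p = 0.882). Opposite-strand overlap was larger for FKBP4 (11.4%) and SLC9A3R1 (11.3%), and BCAS1 (6.72%) and NRIP1 (6.61%) were close to SCNN1A. Same-strand overlap was 13.2% for PKIB and 17.8% for NBL1. SLC22A5, the carnitine transporter, did not pass though its groups did not overlap, at 16.3 ± 3.798 CPM in controls against 19.7 ± 0.401 CPM with PRL (0.27, edgeR adjusted p = 0.135). It passed as higher without control replicate 3 (0.41, edgeR adjusted p = 0.0262), on library totals (0.52, edgeR adjusted p = 0.0315) and on TPM (0.59, limma adjusted p = 0.0232).

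Signal transduction: of 6 genes 1 rose (16.7%, against 32.4% of all tested genes), 2 fell (33.3%, against 30.5%) and 3 did not pass. RERG, a RAS-like GTPase that restrains growth, rose from 34.7 ± 1.998 to 50.5 ± 0.883 CPM (log2 change 0.54 with an SE of 0.08, adjusted p = 1.4e-04 in edgeR). SGK3, a kinase downstream of phosphoinositide 3-kinase, had 14.5, 17.3 and 16.2 CPM across the controls and 6.81, 6.72 and 7.93 CPM across the PRL libraries (log2 change -1.16 with an SE of 0.12, adjusted p = 1.9e-05 in edgeR). The groups were well apart. The readthrough gene C8orf44-SGK3 averaged 16.4 ± 3.06 CPM in controls against 19.2 ± 3.01 CPM with PRL and did not pass (0.22, edgeR adjusted p = 0.223), so that the sum of both was 32.4 ± 2.97 and 26.3 ± 2.42 CPM and the division of reads between them is uncertain. RAB31, a GTPase of vesicle traffic, fell from 13.98 ± 1.24 to 9.896 ± 0.351 CPM (log2 change -0.50 with an SE of 0.11, adjusted p = 0.00233 in edgeR), a call lost on library totals (-0.24, edgeR adjusted p = 0.117), FPKM (-0.18, limma adjusted p = 0.127) and TPM (-0.04, limma adjusted p = 0.809).

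The 3 genes of this group that did not pass had overlapping libraries. PKIB, an inhibitor of protein kinase A, had 17.5, 13.3 and 14.7 CPM across the controls and 15.4, 15.3 and 16.4 CPM across the PRL libraries (log2 change 0.05 with an SE of 0.12, adjusted p = 0.705 in edgeR), the smallest change of the 38. It passed as higher on library totals (0.31, edgeR adjusted p = 0.0315) and TPM (0.37, limma adjusted p = 0.00696), and its sign turned without control replicate 2 (-0.0379, edgeR adjusted p = 0.78). RAPGEFL1, a relative of exchange factors for RAP GTPases, had 213, 232 and 181 CPM across the controls and 236, 227 and 241 CPM across the PRL libraries (log2 change 0.17 with an SE of 0.10, adjusted p = 0.145 in edgeR), and passed as higher without control replicate 2 (0.25, edgeR adjusted p = 0.0432), on library totals (0.42, edgeR adjusted p = 0.00285), FPKM (0.35, limma adjusted p = 0.00981) and TPM (0.55, limma adjusted p = 8.2e-04). ADCY9, an adenylyl cyclase, had 36.8 ± 3.196 CPM in controls against 42.6 ± 3.56 CPM with PRL (log2 change 0.21 with an SE of 0.09, adjusted p = 0.0735 in edgeR), and passed as higher without control replicate 3 (0.27, edgeR adjusted p = 0.0238), with upper quartile scaling (0.26, edgeR adjusted p = 0.0355), on library totals (0.46, edgeR adjusted p = 0.00714), FPKM (0.39, limma adjusted p = 0.0128) and TPM (0.58, limma adjusted p = 0.00484).

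Metabolism and the remaining genes: all 5 rose, where 32.4% of all tested genes did, the only one of the 5 role groups to rise whole. The group is small and mixed, and its genes were chosen with earlier results of these data known. ELOVL2, an elongase of polyunsaturated fatty acids, had 6.37, 5.996 and 7.92 CPM across the controls and 26.4, 28.96 and 27.8 CPM across the PRL libraries (log2 change 2.03 with an SE of 0.12, adjusted p = 4.2e-07 in edgeR). The PRL libraries were about 4.09-fold higher and did not overlap the controls. MAPT, which encodes the microtubule protein tau, had 15.3, 16.2 and 16.4 CPM across the controls and 64.2, 63.3 and 66.2 CPM across the PRL libraries (log2 change 2.02 with an SE of 0.08, adjusted p = 1.8e-08 in edgeR). Each group lay within 3 CPM. UGCG, the enzyme that makes glucosylceramide, had 59.04, 53.7 and 68.3 CPM across the controls and 127, 124 and 127 CPM across the PRL libraries (log2 change 1.06 with an SE of 0.09, adjusted p = 6.0e-06 in edgeR). Control replicate 3 was the nearest control. ABAT, the transaminase of GABA, rose from 17.4 ± 1.81 to 33.1 ± 1.902 CPM (log2 change 0.93 with an SE of 0.10, adjusted p = 2.5e-05 in edgeR), and BCAS1, a gene first found amplified in breast carcinoma, from 25.99 ± 0.863 to 32.6 ± 0.498 CPM (log2 change 0.33 with an SE of 0.08, adjusted p = 0.00368 in edgeR).

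**Figure D4:**
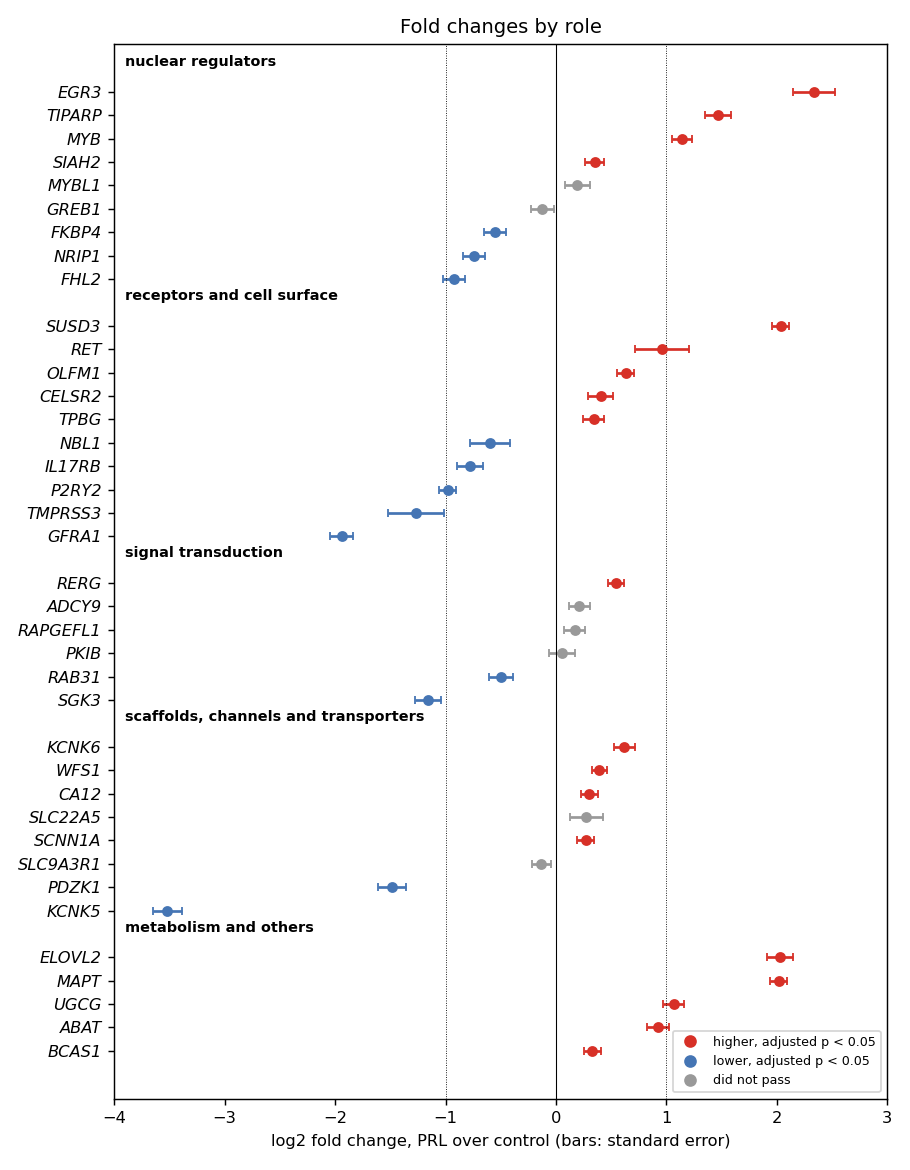
Fitted log2 fold change of PRL over control (x axis; bars are the standard error) for the 38 members in 5 role groups (y axis); red is higher and blue lower at an adjusted p under 0.05, grey did not pass, and dotted lines mark a 2-fold change. Each group but the last holds both rises and falls, and KCNK5 lies farthest from 0.

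The receptor and its partners were taken as a list of 24 genes, all tested: 8 were higher (33.3%, against 32.4% of all tested genes), 8 lower (33.3%, against 30.5%) and 8 did not pass, with a median log2 fold change of -0.14. Both shares lie near those of all genes. On log2 TPM 9 were higher and 3 lower, beside 56.9% and 11.1% of the 12494 genes tested on that scale. ESR1, which encodes estrogen receptor alpha, had 99.5, 109.7 and 116 CPM across the controls and 88.1, 82.7 and 84.4 CPM across the PRL libraries (log2 change -0.35 with an SE of 0.08, adjusted p = 0.00296 in edgeR). Its fall did not pass on library totals (-0.10) or FPKM (-0.07), and the sign was the other on TPM (0.11, limma adjusted p = 0.457). ESR2, the beta receptor, was at 2.24 ± 0.721 CPM in controls against 1.898 ± 0.0891 CPM with PRL (log2 change -0.25 with an SE of 0.26, adjusted p = 0.429 in edgeR). PGR, the progesterone receptor and a target of ESR1, rose from 391 ± 80.6 to 705 ± 9.496 CPM (log2 change 0.85 with an SE of 0.13, adjusted p = 2.3e-04 in edgeR). The smallest adjusted p in the list belonged to HSP90AA1, the inducible HSP90 that holds unliganded receptors (3215 ± 582 to 1436 ± 32.2 CPM), PRMT1, an arginine methyltransferase (165 ± 12.5 to 103 ± 3.14 CPM), PELP1, a receptor coactivator (179 ± 37.03 to 82.5 ± 2.68 CPM), and TFAP2A, a luminal transcription factor (96.2 ± 7.83 to 151 ± 1.92 CPM). The first 3 fell and TFAP2A rose, with log2 fold changes of -1.16, -0.68, -1.12 and 0.65 and edgeR adjusted p from 3.2e-05 to 5.5e-05.

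A list of 20 other genes known to be induced by estrogen had 19 tested genes (SLC7A2 was too low), of which 5 were higher (26.3%, against 32.4% of all tested genes), 9 lower (47.4%, against 30.5%) and 5 did not pass, with a median log2 fold change of -0.33. On log2 TPM 7 were higher and 5 lower, beside 56.9% and 11.1% of the 12494 genes tested on that scale. BCL2, KRT13 and PRSS23 averaged under 1 TPM and were not tested there, and BCL2 and KRT13 are among the 9 lower on TMM. AREG, an EGF receptor ligand, rose from 34.2 ± 4.79 to 294 ± 2.96 CPM (log2 change 3.10 with an SE of 0.10, adjusted p = 5.6e-09 in edgeR) and DEPTOR, an inhibitor of mTOR, from 8.02 ± 1.08 to 31.2 ± 1.24 CPM (log2 change 1.95 with an SE of 0.11, adjusted p = 3.6e-07 in edgeR). STC2, a secreted stanniocalcin, fell from 594 ± 32.4 to 144 ± 5.33 CPM (log2 change -2.04 with an SE of 0.08, adjusted p = 2.5e-08 in edgeR) and AGR2, a protein disulfide isomerase relative, from 1175 ± 115 to 334 ± 4.98 CPM (log2 change -1.82 with an SE of 0.10, adjusted p = 2.2e-07 in edgeR). At least 2-fold changes past the threshold numbered 2 higher (10.5%, against 10.6% of all tested genes) and 5 lower (26.3%, against 5.29%). Besides STC2 and AGR2 the lower ones, named here after their values were seen, were CCND1, the cell cycle regulator cyclin D1 (219 ± 36.8 to 83.2 ± 5.099 CPM; -1.40, edgeR adjusted p = 5.5e-06), BCL2, an inhibitor of apoptosis (-3.47, edgeR adjusted p = 2.4e-05), and KRT13, a keratin (-3.31, edgeR adjusted p = 3.2e-04). BCL2 had 28 to 47 counts in each control and 3 to 5 in each PRL library, and KRT13 had 19 to 23 and 0 to 4.

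**Figure D5:**
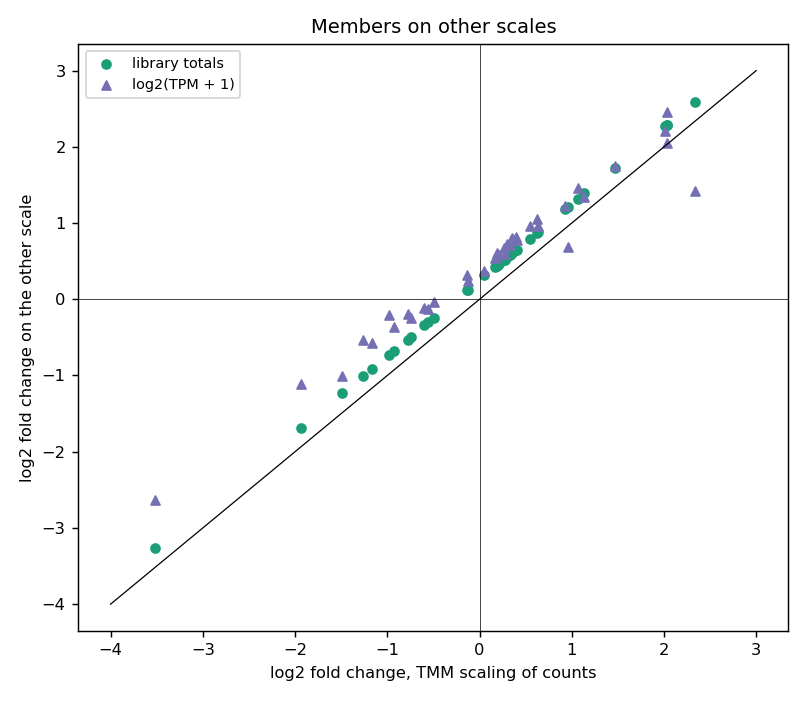
Log2 fold change of the 38 members on TMM-scaled counts (x axis) against the value on library totals (circles) and on log2(TPM + 1) (triangles, y axis); the line marks equal values. Circles lie about evenly above the line, and triangles lie above it except for EGR3 and RET, the members with the lowest TPM, since a pseudocount of 1 understates changes of low genes.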

How the data were processed

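Total RNA of 6 T47D libraries came from Trizol extraction and standard Illumina sequencing, per the labels. HISAT2 2.1.0, Bowtie2 2.3.4.3 and the build GRCh38.p13 are named in the submitters' processing notes; how reads were counted, by which annotation, with which RNA selection and whether by strand is not given in the sources used here. Without strand, reads of a gene and its antisense partner cannot be told apart. The authors deposited estimated counts, FPKM and TPM values per library, per the file headers; the FPKM are scaled to length and library size and the TPM to length and the sum of transcripts. The authors' group means were not used. Of the counts 44.1% to 45.9% per library were not whole and were rounded. A count of 0 allows up to 3 counts, or 0.165 to 0.203 CPM per library, counting error only.

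Groups came from the sample titles. Counts of all genes were fitted in R 4.3.3 with edgeR 4.0.16 (robust quasi-likelihood, group as the only term, filter by expression, TMM), with Benjamini-Hochberg adjustment over 14076 genes and a threshold of 0.05. SE is the absolute log2 fold change over the root of F. Limma 3.58.1 on log2(value + 1) with a mean of at least 1, voom, DESeq2 1.42.0, other scalings and filters, a replicate block and each library left out were alternatives. The members, the 2 added lists and the markers were chosen with earlier results of these data known, from textbook knowledge; 1 leukocyte marker is not reported here. Library values are given for the 8 largest rises and falls past the threshold and the 4 smallest changes, and group means for the others, except NBL1, given by library after its values were seen; of the added lists, the receptors and the 4 genes of each with the smallest adjusted p are named. P-values measure only the spread between these libraries. Loci and shared exon bases come from GENCODE 29 (GRCh38).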

Additional observations from a re-analysis of the deposited data

How the results depend on the processing

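Counts of higher and lower members were 19 and 12 with TMM and with DESeq2's size factors, both filters, DESeq2, voom and the replicate block, and 20 and 12 with upper quartile scaling. Of all tested genes 4554 were higher and 4300 lower with TMM, and 4973 and 3931 with upper quartile scaling. The other scales recentre all genes. On library totals, FPKM and TPM the median over the members was 0.52, 0.40 and 0.64, beside 0.26, 0.20 and 0.39 over all tested genes. Lower members numbered 6 on TPM, where 11.1% of tested genes were lower. At least 2-fold lower members numbered 3 on FPKM and 3 on TPM, scales on which the 2-fold share of all genes was not taken. A pseudocount of 1 also understates changes of low genes there, so these counts cannot set the members apart from other genes. Lower genes of the receptor list numbered 3 on totals, 4 on FPKM and 3 on TPM, lower genes of the other estrogen-induced list 5 on TPM, and all lower genes 2394, 2360 and 1381, with 7113 higher on TPM. BCL2 and KRT13 of the other estrogen-induced list, both lower on TMM, were not among the genes tested on TPM. Signs turned for GREB1 (0.12, 0.0481 and 0.24 on totals, FPKM and TPM), SLC9A3R1 (0.12, 0.12 and 0.32), ESR1 (0.11 on TPM) and ESR2 (0.0019 on totals). Of 38 members, 14 changed their call or sign in at least 1 setting, and 35 kept their sign in all that gave a value.

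With 1 library left out, members higher ranged from 18 to 22 and lower from 11 to 12. Of all tested genes 3929 to 5264 were then higher and 3653 to 4688 lower. The log2 change ranged from -0.0379 to 0.17 for PKIB and from -0.44 to 0.0384 for ESR2. No pairing by replicate number was visible: same-numbered deviations correlated at -0.105, 0.0428 and -0.0569, and only control replicate 2 correlated best with its own number. With 3 libraries a group these values cannot show whether the libraries were prepared in pairs. With the replicate number as a block 4423 genes were higher and 4108 lower, against 4554 and 4300 without it. Depth limits EGR3, RET and TMPRSS3, with 15 to 59 counts in each control library.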
